A study of Saccharomyces cerevisiae with 40 samples.

Results

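The labeling time course of budding yeast cells that lack DEF1 is described here by the order in which their RNAs gained and lost share in newly made RNA. Its members are the 9 def1Δ libraries of the RNA Approach To Equilibrium sequencing experiment (RATE-Seq), out of 40 samples in the series, and they were chosen by strain and assay alone. The labels give the def1Δ cells as a DEF1 knockout in W303, for which the study's strain list has a KanMX cassette in place of DEF1, and the cells were fed 5 mM 4-thiouracil (4tU) in rich glucose medium for 6, 9, 12, 24 or 90 min before labeled RNA was purified. The 9 WT libraries of the same course, from W303 cells with DEF1 intact and the same labeling, were used only where the strains were compared. Each time had 2 libraries per strain apart from 12 min, where 1 library per strain (replicate 2) was used and replicate 1 was not analysed here.

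In such a course a thiolated base enters every RNA that is being made, and the labeled RNA alone is pulled down and sequenced. Early on, the labeled pool holds RNAs in proportion to how fast they are made. Where synthesis stays constant, a quickly degraded RNA reaches its plateau early as labeling goes on, while a long-lived RNA keeps collecting label. In that case the makeup of the labeled pool would move from that of newly made RNA towards that of total RNA. Def1 is known for promoting the ubiquitylation and removal of stalled RNA polymerase II, and also has cytoplasmic roles in mRNA regulation.

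The values are counts per gene, given either as plain CPM, a gene's share of the library total on a common scale, or as normalized CPM, for which that total was further scaled by edgeR's TMM method. Both are shares of the labeled RNA of S. cerevisiae. The S. pombe spike-in was not used here, so that a change common to all RNAs is not seen, and "rose" and "fell" below mean a gain or loss of share. Over the def1Δ libraries, totals ran from 8901766 counts at 6 min to 16318100 counts at 90 min. DEF1 had 0 to 4 counts in the def1Δ libraries, against 620 to 2378 in WT libraries. Replicates of def1Δ correlated with r between 0.992 and 0.994 on log2(CPM + 1) across genes, which are not independent, and they differed by more than sampling noise. For W303, the background that the labels give for every library, the study's strain list has mating type alpha. STE2, the alpha-factor receptor that a cells make, had 355 to 1094 CPM over the def1Δ libraries and the alpha-factor gene MF(ALPHA)1 at most 0.363 CPM. The WT libraries were alike in this, with 749.9 to 2259 CPM of STE2 and at most 0.334 CPM of MF(ALPHA)1. Other mating genes were mixed. Over the def1Δ libraries, STE6 and BAR1, which a cells make, had 161 to 621 and 138 to 335 CPM. The a-factor gene MFA1 had at most 0.448 CPM there, and SAG1, which alpha cells make, 27.1 to 152 CPM. In WT libraries BAR1 had 106 to 561 CPM and MFA1 at most 1.64 CPM. Some alpha-specific genes were lower in def1Δ, without overlap between the strains. AFB1 had 6.56 to 11.8 CPM in def1Δ libraries, against 88.9 to 217.9 CPM in WT libraries. STE3 had 1.05 to 4.04 against 7.54 to 16.5 CPM, and MATALPHA2 2.51 to 5.7 against 9.79 to 18.5 CPM. The ranges of SAG1, STE2, STE6 and BAR1 overlapped between the strains. The mating type was not tested.

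Labeled RNA at 90 min was set against that at 6 min to find which RNAs gained and which lost share. At 90 min 121 of 135 cytoplasmic ribosomal protein RNAs and all 29 box H/ACA snoRNAs tested were called higher, and 65 of 113 transcription regulator RNAs and 17 of 33 cyclin and cell cycle RNAs were called lower. Of 6353 genes tested with edgeR's quasi-likelihood test, 1238 (19.5%) were called higher at 90 min and 1283 (20.2%) lower, at an adjusted p under 0.01 and a log2 fold change above 1 in size. With library totals as the only scaling, 39.3% of the calls were on the higher side, and with upper quartile scaling 62.6%, against 49.1% here. These scalings moved the median over all genes, which was -0.10 on the log2 scale, by -0.19 and 0.23, so that all changes below are relative to that median.

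The noncoding RNAs that guide modification of other RNAs had the largest median rise of the lists examined. Of 79 small nucleolar RNAs (snoRNAs) and spliceosomal RNAs, 64 passed the count filter, 41 rose, none fell, and the median log2 fold change was 2.28. None being lower was also the result with DESeq2, and 1 member was lower at an unadjusted p under 0.05. As a sum their share of all counts was 12863 and 11686 CPM at 6 min, 15047 and 16662 at 9 min, 16817 at 12 min, 29353 and 37477 at 24 min, and 69293 and 73636 at 90 min. Both 90 min libraries stood far above all the others.

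The RNAs of that group fall into box H/ACA snoRNAs, which guide pseudouridylation and end in an ACA triplet, and box C/D snoRNAs, which guide 2′-O-methylation and carry a C box near the start and a D box near the end. Sequences of 3 H/ACA snoRNAs, 2 C/D snoRNAs that rose and 1 C/D snoRNA that was not called, chosen after their values were seen, are shown to set the classes side by side. They are RefSeq sequences of the R64 assembly, 5′ to 3′ as DNA letters, with capitals for the ACA triplet in the last 8 bases of an H/ACA RNA, and for the first TGATGA and the last CTGA of a C/D RNA.
snR10 (H/ACA, chrVII:345986-346230, plus strand): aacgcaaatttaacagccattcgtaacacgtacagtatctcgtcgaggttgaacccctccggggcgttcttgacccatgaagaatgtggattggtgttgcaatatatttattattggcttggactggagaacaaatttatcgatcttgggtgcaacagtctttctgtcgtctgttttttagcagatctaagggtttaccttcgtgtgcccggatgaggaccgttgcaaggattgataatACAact
snR34 (H/ACA, chrXII:899180-899382, plus strand): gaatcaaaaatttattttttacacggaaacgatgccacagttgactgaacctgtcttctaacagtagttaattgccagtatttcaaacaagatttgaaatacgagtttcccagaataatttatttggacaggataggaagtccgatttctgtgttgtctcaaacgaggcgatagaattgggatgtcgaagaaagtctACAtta
snR32 (H/ACA, chrVIII:381540-381727, plus strand): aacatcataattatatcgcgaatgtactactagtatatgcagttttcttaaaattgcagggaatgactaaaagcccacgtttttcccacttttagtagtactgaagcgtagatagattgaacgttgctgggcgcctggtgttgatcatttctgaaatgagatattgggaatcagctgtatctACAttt
snR190 (C/D, chrX:139761-139950, minus strand): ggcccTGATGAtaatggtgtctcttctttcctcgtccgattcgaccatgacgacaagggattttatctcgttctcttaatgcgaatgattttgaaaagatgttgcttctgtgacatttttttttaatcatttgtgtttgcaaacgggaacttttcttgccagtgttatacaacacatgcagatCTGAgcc
snR128 (C/D, chrX:139566-139691, minus strand): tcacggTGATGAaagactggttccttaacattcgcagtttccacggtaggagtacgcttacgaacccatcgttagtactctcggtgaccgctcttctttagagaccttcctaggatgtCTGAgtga
snR13 (C/D, chrIV:1402919-1403042, plus strand): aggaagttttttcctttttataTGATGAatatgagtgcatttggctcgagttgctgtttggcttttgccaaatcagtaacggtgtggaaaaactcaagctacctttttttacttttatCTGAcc

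All 29 H/ACA RNAs tested rose, with log2 fold changes from 1.16 to 4.13 and a median of 2.75. Among them, snR10 had 24.98 and 21.4 normalized CPM at 6 min, 26.0 and 47.7 at 9 min, 50.8 at 12 min, 102 and 165 at 24 min, and 396 and 413 at 90 min. The level at 90 min was therefore above every earlier library, with a log2 fold change over 6 min of 4.13 (SE 0.25, adjusted p = 2.11e-09). The more abundant H/ACA RNA snR83 had 5926 and 7147 normalized CPM at 90 min, against 530 and 429 at 6 min, a log2 fold change of 3.77 (SE 0.16). The log2 fold changes of snR36, snR3, snR34 and snR32 lay between 3.40 and 3.73.

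Box C/D RNAs were less uniform. Of 31 tested, 8 rose and 23 were not called, with a median log2 fold change of 0.95. The 8 that rose were 126 to 490 bases long with a median level of 305 normalized CPM, while the other 23 were 82 to 136 bases long with a median level of 2.71 normalized CPM. Over all 31 C/D RNAs the median length was 101 bases and the median level 7.99 normalized CPM, against 204 bases and 144 for the 29 H/ACA RNAs. Length and level thus differed between the classes, and moved with the call among C/D RNAs. Their part in either was not tested. Both copies of U3, the C/D RNA needed for the first cleavages of pre-rRNA, were among the risers. The major copy snR17a reached 27522 and 30763 normalized CPM at 90 min, against 2798 and 2606 at 6 min, a log2 fold change of 3.43 (SE 0.14), and the minor copy snR17b changed by 3.34 (SE 0.16) on the same scale. snR190 and snR128, neighbours on chromosome X, rose by 3.06 (SE 0.13) and 2.35 (SE 0.16), whereas snR13 changed by 0.95 (SE 0.15) and missed the fold cutoff.

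The spliceosomal RNAs and the RNA subunits of housekeeping enzymes moved the same way. All 4 spliceosomal RNAs tested rose, with log2 fold changes from 1.77 to 2.41, the smallest being that of LSR1, the U2 RNA, which had 8845 and 9193 normalized CPM at 90 min, against 2833 and 2446 at 6 min. Of 16 other noncoding RNAs, 12 were tested, 5 rose and 3 fell, and without replicate 2 of 6 min 3 rose. SCR1, the RNA of the signal recognition particle, had 48873 and 56065 normalized CPM at 90 min, against 6625 and 5719 at 6 min, a log2 fold change of 3.09 (SE 0.17, adjusted p = 1.07e-09). RPR1, the RNA of RNase P, rose by 2.33 (SE 0.13). ICR1, a long noncoding RNA made across the FLO11 promoter, went the other way, with 18.7 and 16.5 normalized CPM at 90 min, against 140 and 126 at 6 min, and a log2 fold change of -2.92 (SE 0.11). No tRNA of 60 tested was called in either direction by edgeR or DESeq2, with 3 higher and none lower at an unadjusted p under 0.05. For 24 over 6 min, edgeR called 3 higher. All nuclear tRNAs together had only 131 CPM in the highest library (replicate 2 of 24 min) and 11.8 in the lowest (replicate 2 of 90 min). Few reads stood behind these entries, so that the lack of calls does not show unchanged tRNAs.

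The spacers cut out of the ribosomal RNA precursor had the largest median fall of the lists. Their sum was 115 and 84.2 CPM at 6 min, 41.4 and 67.0 at 9 min, 40.3 at 12 min, 22.6 and 31.9 at 24 min, and 12.1 and 4.46 at 90 min. Of 6 spacer entries tested, 4 fell, none rose (none also with DESeq2 or at an unadjusted p under 0.05) and the median log2 fold change was -3.49. Entries of the 2 rDNA copies in the annotation hold the same values, so that they are pairs and not independent members. The external spacer ETS1-1 had 4.18 and 1.89 normalized CPM at 90 min, against 39.7 and 29.5 at 6 min, a log2 fold change of -3.49 (SE 0.29). The internal spacer ITS1-1 fell by 3.09 (SE 0.48) on the same scale. Ribosomal RNA itself was depleted before sequencing, and its entries were erratic: of 12 tested 2 fell and none rose by edgeR or DESeq2, 2 being higher at an unadjusted p under 0.05. The 35S precursor RDN37-1 had 353 and 97.4 normalized CPM at 90 min, against 263 and 181 at 6 min, with a log2 fold change of 0.02 (SE 0.37). Without replicate 1 of 90 min its log2 fold change was -1.08 and past the threshold.

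**Figure D1:**
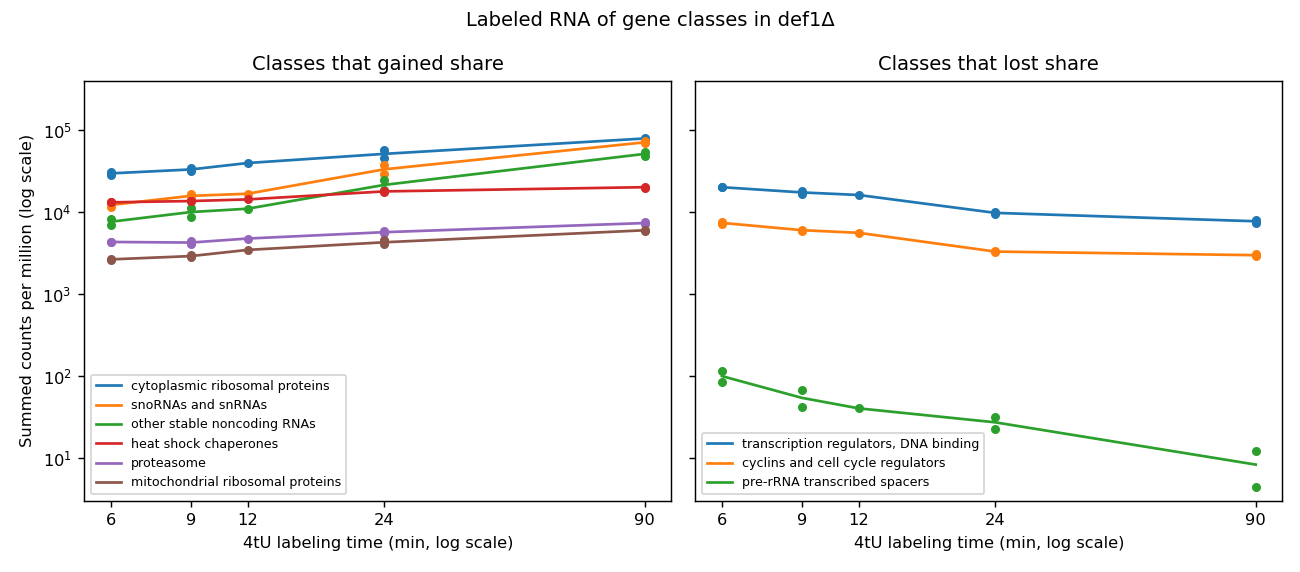
Summed plain CPM of gene classes (log axis) against labeling time in min (log axis) in the 9 def1Δ libraries; points are libraries and lines join the means at each time. The sums of cytoplasmic ribosomal protein RNAs, snoRNAs and other stable noncoding RNAs climbed through 90 min, while the fall of transcription regulators and cyclins was steeper before 24 min than after. The sum of other stable noncoding RNAs is mostly SCR1, and of the 12 tested in that list 5 rose and 3 fell.

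RNAs for the cytoplasmic ribosome had the largest median rise of the coding lists. Of 135 ribosomal protein genes tested, 121 rose and 1 fell, with a median log2 fold change of 1.86. Their summed share was 28364 and 31289 CPM at 6 min, 32116 and 34496 at 9 min, 39897 at 12 min, 46236 and 56975 at 24 min, and 77712 and 81449 at 90 min. The 90 min libraries held more than any earlier one. RPL10, one of the 2 most abundant of the list, had 3404 and 4036 normalized CPM at 90 min, against 1117 and 1137 at 6 min, a log2 fold change of 1.72 (SE 0.11). RPP0, which builds the ribosomal stalk, rose by 1.02 (SE 0.11), and this call was lost with library totals only (0.83). The largest rise was that of RPS28A, with 75.8 and 56.3 normalized CPM at 90 min, against 8.72 and 8.78 at 6 min. The single member that fell was RPL22B, the minor of 2 paralogs of a large-subunit protein, with 13.9 and 12.9 normalized CPM at 90 min, against 40.0 and 33.7 at 6 min, and a log2 fold change of -1.46 (SE 0.13).

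Few of the factors that assemble ribosomes were called. Of 141 ribosome biogenesis genes, 16 (11.3%) rose and 12 (8.51%) fell, against 19.5% and 20.2% of all genes. Their median log2 fold change was 0.19, while their sum went from 17983 and 19905 CPM at 6 min to 13382 and 13717 at 90 min. Without replicate 1 of 90 min, 27 rose and 7 fell. The 2 most abundant, UTP22 and UTP10, are parts of the small-subunit processome, and fell by 1.63 (SE 0.10) and 1.83 (SE 0.10) on the log2 scale. UTP20 fell furthest in the list, with 144 and 148 normalized CPM at 90 min, against 730 and 749.7 at 6 min. LOC1, which acts in large-subunit assembly and in ASH1 mRNA localization, rose most, with 48.9 and 48.5 normalized CPM at 90 min, against 11.8 and 11.4 at 6 min. Among 20 subunits of RNA polymerases I and III, 4 rose and 4 fell, shares near the 19.5% and 20.2% over all genes. As a sum they went from 3775 and 3954 CPM at 6 min to 2248 and 2248 at 90 min. The largest subunits RPA190 (-1.33, SE 0.10) and RPO31 (-1.95, SE 0.11) fell and the small subunit RPC34 (1.53, SE 0.11) rose on the log2 scale. Of 38 translation factors, 12 (31.6%) rose and 1 fell, with a median log2 fold change of 0.56. TEF1, which encodes elongation factor eEF1A, had a log2 fold change of 1.48 (SE 0.11), but 92.5% of its 50-base words occur elsewhere in the genome, as in its copy TEF2, so that the split of reads between the copies is uncertain. TIF11, initiation factor eIF1A, rose by 2.33 (SE 0.12), while the abundant elongation factor YEF3 changed by -0.49 (SE 0.11) without passing the fold cutoff.

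Nuclear genes for the mitochondrial ribosome and respiratory chain were often called higher. Of 78 mitochondrial ribosomal protein genes, all tested, 63 rose and none fell (none also by DESeq2 or at an unadjusted p under 0.05), and all 78 had a positive log2 fold change, with a median of 1.57. Of 42 nuclear genes for the respiratory chain and ATP synthase, 30 rose and none fell by edgeR or DESeq2, 2 being lower at an unadjusted p under 0.05. MRPL37 rose most among the mitochondrial ribosomal proteins, with 24.7 and 29.1 normalized CPM at 90 min, against 5.00 and 2.88 at 6 min, a log2 fold change of 2.82 (SE 0.25). The most abundant members, MRPL3 (0.89, SE 0.09) and NAM9 (0.82, SE 0.10), missed the fold cutoff. MRPL3 passed it without replicate 1 of 90 min (1.01). STF1, a regulator of the ATP synthase, had 13.7 and 16.5 normalized CPM at 90 min, against 1.81 and 1.90 at 6 min, whereas ATP2, the catalytic beta subunit, changed by 0.51 (SE 0.10) and was one of 12 members not called. Of 19 genes of the TCA cycle, 5 (26.3%) rose and 1 (5.26%) fell, and 9 rose without replicate 1 of 90 min. LSC2, a subunit of succinyl-CoA ligase, rose by 2.07 (SE 0.10), and the peroxisomal citrate synthase CIT2 fell by 1.25 (SE 0.09). Among 27 entries of the mitochondrial genome, 5 (18.5%, against 19.5% of all genes) rose and 1 fell, and 8 rose without replicate 1 of 90 min. COX3, a subunit of cytochrome oxidase, had 519 and 495 normalized CPM at 90 min, against 176 and 202 at 6 min. COB, which encodes cytochrome b, rose by 2.07 (SE 0.19) and OLI1, an ATP synthase subunit, by 1.26 (SE 0.14). OLI1 was not past the fold cutoff for 90 over 9 min (0.93).

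Most mRNAs of mitochondrial ribosomal proteins carry, after the stop codon, the letters bound by the Pumilio protein Puf3, which is known to control the decay and translation of such mRNAs. The motif TGTANATA was searched on the sense strand in the 200 bases after the stop codon, and it was found in 77 of the 78 genes, against 14.7% of all 5633 nuclear coding genes outside the cytoplasmic ribosomal proteins. It is shown for the member with the largest rise and the 2 most abundant members, as 30 bases of the RefSeq R64 assembly on the coding strand, with the motif in capitals.
MRPL37 (chrII:741638-741667, plus strand): tttggtatcctTGTAAATAaatatgtgtgt
MRPL3 (chrXIII:323054-323083, plus strand): gtttgccatttTGTAGATAgagaactcctt
NAM9 (chrXIV:368522-368551, minus strand): tctctttacacTGTAAATAtttaatttttt

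Over the 753 genes that hold the motif and are in neither ribosomal protein list, the median log2 fold change was 0.19, against -0.17 over 4802 such genes without it. Of the 753 with the motif 183 rose and 113 fell, and of the 4802 without it 811 rose, while over all genes tested 19.5% rose and 20.2% fell. Falls among the 4802 were not counted. Relative to genes of the same quintile of coding length, the medians were 0.21 with the motif and -0.08 without it. A match is a run of letters and does not show binding.

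Many RNAs for proteins that destroy or fold other proteins were called higher. Of 34 proteasome genes, 26 rose and 1 fell, with a median log2 fold change of 1.31. SEM1, a small subunit of the lid, had 17.8 and 15.97 normalized CPM at 90 min, against 3.61 and 3.86 at 6 min. The abundant RPN1 and RPN2, which form the base scaffold, changed by 0.55 (SE 0.09) and 0.15 (SE 0.11), and with library totals only RPN2 was at -0.032. The member that fell is not a subunit: RPN4 encodes the transcription activator of the proteasome genes, and had 481 and 450 normalized CPM at 6 min, 385 and 345 at 9 min, 294 at 12 min, 179 and 192 at 24 min, and 115 and 98.0 at 90 min. Each later time was below every earlier library for this gene. Of 36 chaperone genes, 19 rose and none fell by edgeR or DESeq2, 2 being lower at an unadjusted p under 0.05. HSP12, a small stress protein that associates with membranes (chromosome VI, 107256 to 107585), rose more than any other gene with a mean of at least 100 counts apart from YHR054C. It had 8.29 and 5.76 normalized CPM at 6 min, 9.93 and 7.70 at 9 min, 8.24 at 12 min, 30.2 and 26.6 at 24 min, and 242 and 193 at 90 min. It was therefore flat up to 12 min and rose after it, with a log2 fold change of 4.99 (SE 0.18) over the whole course and of 2.94 for 90 over 24 min. SSE1, an Hsp110 chaperone, rose by 1.12 (SE 0.09), a call lost with library totals only (0.93). The ribosome-bound Hsp70 SSB1 changed by 0.11 (SE 0.10), or by -0.076 with library totals only, and 43.2% of its words are repeated elsewhere, so that reads may be split with its copy.

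Metabolic genes were mixed. Of 24 genes of glycolysis and fermentation, 11 (45.8%) rose and 2 (8.33%) fell, against 19.5% and 20.2% of all genes. TDH3, the main glyceraldehyde-3-phosphate dehydrogenase, had 21356 and 23129 normalized CPM at 90 min, against 7945 and 8003 at 6 min, though 24.4% of its 50-base words occur elsewhere in the genome. GPM1, phosphoglycerate mutase, rose by 1.96 (SE 0.11), and the alcohol dehydrogenase ADH4 fell by 2.07 (SE 0.10). Of 22 genes of trehalose and glycogen metabolism, 6 (27.3%) rose and 2 (9.09%) fell, among them the protein phosphatase regulators GLC8 (2.41, SE 0.12) and GAC1 (-2.24, SE 0.19). TPS2, trehalose-6-phosphate phosphatase, was at -0.12 (SE 0.12), and turned to 0.11 without replicate 2 of 90 min or with upper quartile scaling. Of 25 genes of sterol synthesis, 7 rose and 3 fell. Farnesyl pyrophosphate synthase ERG20 rose by 1.85 (SE 0.11), the HMG-CoA reductase HMG2 fell by 1.58 (SE 0.10), and the demethylase ERG11 was at -0.21 (SE 0.09). Of 77 genes of amino acid biosynthesis, 13 (16.9%) rose and 6 (7.79%) fell, and 22 rose without replicate 1 of 90 min. PRO2 of proline synthesis rose by 1.72 (SE 0.10) and LEU2 of leucine synthesis fell by 2.07 (SE 0.10), while the abundant ILV5 was at -0.86 (SE 0.10). Of 11 histone genes, 5 (45.5%) rose and none fell by any of these tests, and 3 rose without replicate 1 of 6 min. The linker histone HHO1 rose by 1.48 (SE 0.11), and HHT2, a histone H3 gene, was at 0.65 (SE 0.11).

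Many RNAs that encode regulators lost share. Of 113 DNA-binding transcription regulators, 65 fell and none rose by edgeR or DESeq2, with 6 higher at an unadjusted p under 0.05. The median log2 fold change was -1.14. Their sum was 20103 and 20351 CPM at 6 min, 17994 and 16924 at 9 min, 16250 at 12 min, 10174 and 9476 at 24 min, and 8049 and 7472 at 90 min. SFP1, an activator of ribosomal genes, had 123 and 101 normalized CPM at 90 min, against 646 and 619 at 6 min, and a log2 fold change of -2.50 (SE 0.13), the largest fall of the list. ADR1, an activator of glucose-repressed genes, fell by 1.77 (SE 0.10), and GCN4, the activator of amino acid synthesis genes, was at -0.67 (SE 0.10). Of 33 cyclins and cell cycle regulators, 17 fell and none rose by edgeR or DESeq2, with 3 higher at an unadjusted p under 0.05. The G1 cyclin CLN3 had 710 and 657 normalized CPM at 6 min, 505 and 519 at 9 min, 357 at 12 min, 255 and 198 at 24 min, and 146 and 134 at 90 min. CLN2, another G1 cyclin, fell by 1.58 (SE 0.10), and ASH1, the daughter-cell repressor of HO, fell by 1.52 (SE 0.09).

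Of 51 factors of mRNA decay, 11 (21.6%) rose and 12 (23.5%) fell, shares near the 19.5% and 20.2% of all genes. Their sum nonetheless went from 10081 and 10143 CPM at 6 min to 5333 and 5096 at 90 min. CDC39, which encodes Not1, the scaffold of the Ccr4-Not complex, fell by 2.06 (SE 0.10), and MPT5, a Pumilio protein also called Puf5, by 2.55 (SE 0.11). LSM5, a small protein of the Lsm ring, had 37.3 and 36.2 normalized CPM at 90 min, against 5.95 and 8.01 at 6 min. Of 38 cell wall genes, 6 (15.8%) rose and 9 (23.7%) fell, again near the shares of all genes. CCW12, a mannoprotein of the cell wall and one of the 2 most abundant RNAs of the list, had 27010 and 29772 normalized CPM at 90 min, against 5450 and 5637 at 6 min. SED1, the most abundant cell wall RNA, changed by 0.76 (SE 0.18), and the daughter-cell glucanase DSE4 fell by 2.49 (SE 0.10). Of the 7 a-specific mating genes tested, 1 rose and 3 fell, STE2 (-1.36, SE 0.09) and the a-factor exporter STE6 (-1.64, SE 0.10) among them. Of 5 alpha-specific genes tested, 1 rose and 2 fell.

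**Figure D2:**
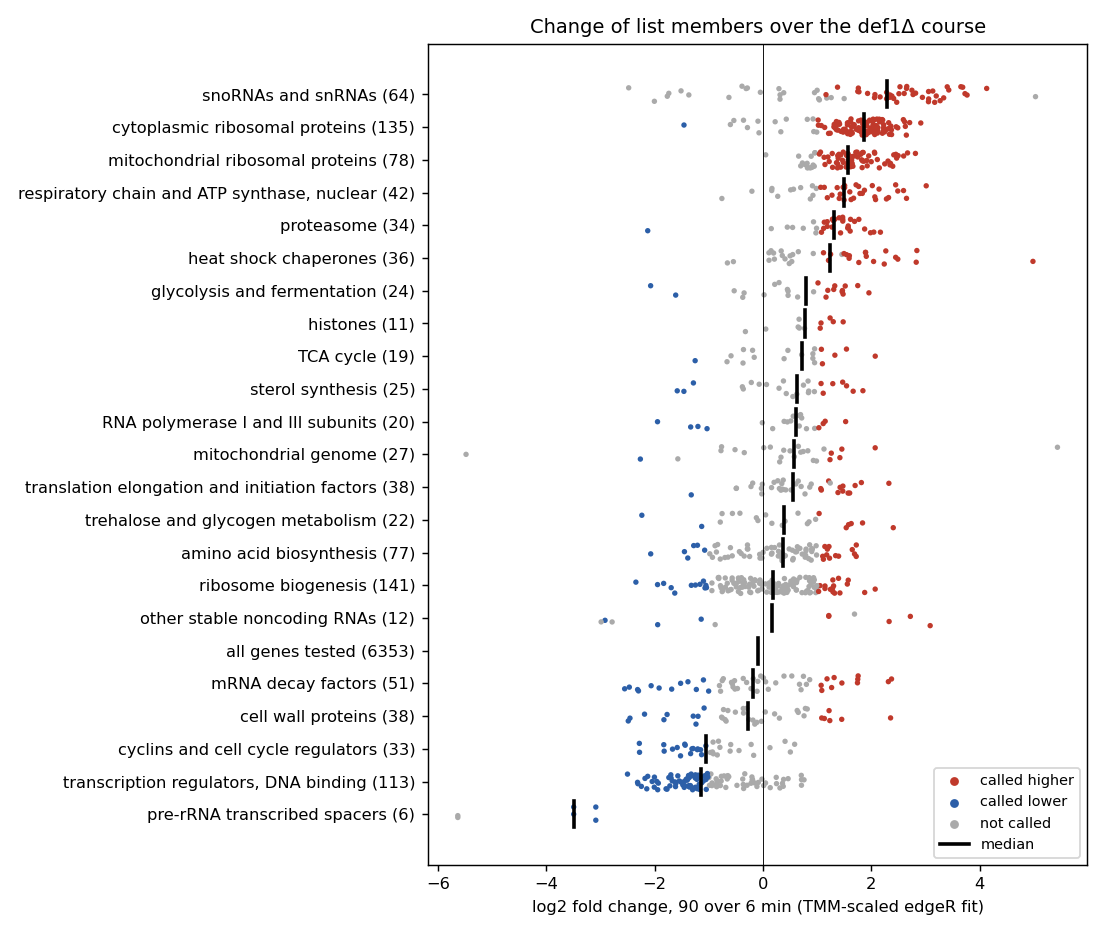
Log2 fold change of 90 over 6 min in def1Δ for the members of each list (number tested in brackets), with the median as a black bar; red points were called higher, blue points lower and grey points neither. Of 135 ribosomal protein points 121 are red, and of 113 transcription regulator points 65 are blue and none red.

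Among single genes with at least 100 counts on average and no overlap between the 2 times, the falls were led by entries with copies elsewhere in the genome. YBL005W-A and YMR046C (Ty element entries), RDN25-1 and YRF1-6 had no more than 0.13 normalized CPM at 90 min, and up to 75.5 at 6 min. Between 77.7% and 99.7% of the 50-base words of YBL005W-A, YMR046C and YRF1-6 occur elsewhere in the genome, so the reads could be assigned to other copies, and their fitted fold changes are not quoted. The call for YMR046C, with 0.11 and 22.8 normalized CPM at 6 min, was lost without replicate 2 of 6 min (adjusted p = 0.463 by edgeR). YRF1-2, a helicase gene of the subtelomeric Y′ element with 98.0% of such words, had 8.82 and 16.9 normalized CPM at 90 min, against 181 and 175 at 6 min. YHR054C, which lies in the CUP1 repeat with all its words repeated, had 13.6 and 14.95 normalized CPM at 90 min, against 0 and 0.49 at 6 min, but already 16.4 and 3.55 at 9 min, and was not called for 90 over 9 min (0.50, adjusted p = 0.313 by edgeR).

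Genes with few or no repeated words, where these were counted, followed. FLR1, a plasma membrane exporter of drugs (chromosome II, 252563 to 254209), had 1648 and 1301 normalized CPM at 6 min, 2156 and 1956 at 9 min, 1770 at 12 min, 2070 and 1909 at 24 min, and 77.8 and 79.4 at 90 min. Its share thus held through 24 min and then dropped, with a log2 fold change of -4.66 for 90 over 24 min (adjusted p = 4.79e-11). The putative aryl-alcohol dehydrogenase AAD6 had 600 and 487 normalized CPM at 6 min, 597 and 549 at 9 min, 449 at 12 min, 367 and 354 at 24 min, and 36.7 and 45.3 at 90 min. Its relative AAD4, with 21.4% of its words repeated, fell by 3.85 (SE 0.20) on the log2 scale. FRE7, a ferric reductase-like gene, and YLR108C, of unknown function, declined from the start. FRE7 had 3.01 and 1.29 normalized CPM at 90 min, against 27.5 and 28.3 at 6 min, and YLR108C had 35.9 and 43.2 at 90 min, against 498 and 439 at 6 min. Of the largest rises outside the snoRNAs, FIT2, a cell wall protein of iron uptake, had 153 and 200.5 normalized CPM at 90 min, against 15.5 and 17.5 at 6 min, and YDR154C had 384 and 457, against 37.7 and 37.4 at 6 min. YDR154C had no position or coding sequence in the annotation used. Repeated words were not counted for it or for AAD6, so reads shared with other genes cannot be judged there.

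**Figure D3:**
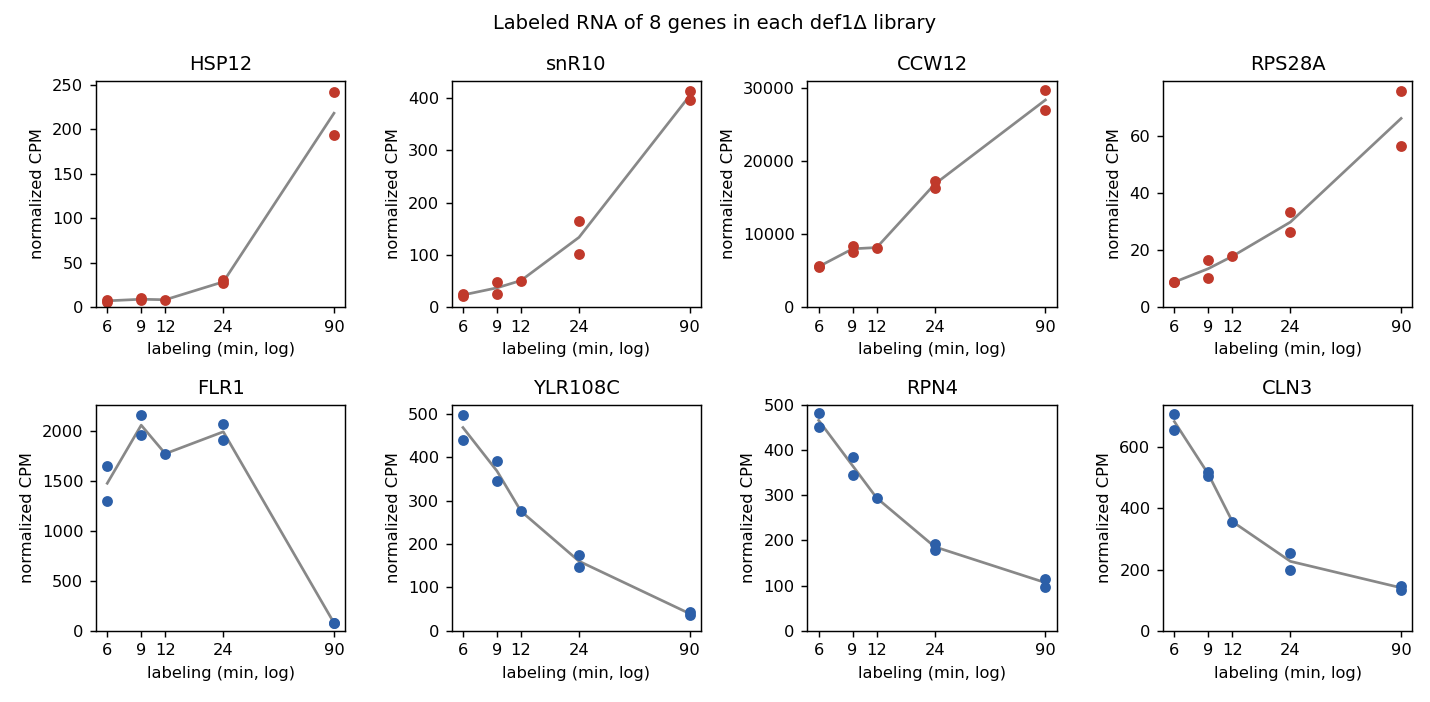
Normalized CPM of 8 genes in each def1Δ library against labeling time (min, log axis); points are libraries and the grey line joins the means. HSP12 stayed low until 12 min, FLR1 held through 24 min and fell to 77.8 and 79.4 at 90 min, and CLN3 and RPN4 declined from 6 min on.

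The course was then divided at 24 min, to see when the changes took place. Between 6 and 24 min, 621 genes (9.77%) were called higher at 24 min and 842 (13.3%) lower, and between 24 and 90 min 255 (4.01%) were called higher at 90 min and 122 (1.92%) lower. Of the calls for 24 over 6 min, 42.4% were on the higher side, against 29.3% with library totals only and 61.0% with upper quartile scaling. Of those for 90 over 24 min, 67.6% were on the higher side, and 54.0% with library totals only. Without replicate 2 of 24 min 459 genes were higher at 90 than at 24 min, and without replicate 2 of 90 min 75 were lower. The contrasts share libraries and are given side by side.

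Regulators had finished most of their fall by 24 min. The 113 transcription regulators had a median log2 fold change of -0.92 for 24 over 6 min, with 49 lower, and of -0.13 for 90 over 24 min, with 1 lower. The cyclins had -0.97, with 14 of 33 lower, and then -0.14, with none lower. Ribosomal protein RNAs rose over both parts, by a median of 1.05 with 79 of 135 higher, and then by 0.81 with 37 higher. snoRNAs and spliceosomal RNAs had medians of 1.60 with 45 of 64 higher, and then 0.65 with 21 higher. The proteasome had medians of 0.82 with 9 of 34 higher, and then 0.53 with 1 higher. Mitochondrial ribosomal proteins had medians of 0.91 with 33 of 78 higher, and then 0.62 with 10 higher. Over the 1238 genes that rose from 6 to 90 min, the median gene had made 58.0% of its log2 change by 24 min (quartiles 48.7% and 68.4%), and over the 1283 that fell 74.4% (quartiles 57.5% and 86.7%).

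The order also ran with transcript length. In the quintile of genes with the shortest coding sequences, 78 to 627 nt, 50.4% rose and 5.72% fell, and in the longest quintile, 2124 to 14733 nt, 0.780% rose and 52.4% fell. The medians of the log2 fold change from the shortest quintile to the longest were 1.16, 0.59, 0.09, -0.52 and -1.04. Across 5633 nuclear coding genes outside the cytoplasmic ribosomal proteins, Spearman's rho with the log2 fold change was -0.55 for coding length, -0.57 for the number of uridines in the coding sequence and -0.29 for the percent of uridine. For the codon adaptation index, a measure of how far codon use is like that of highly expressed genes, it was 0.21 over all of them and 0.26 to 0.38 within the quintiles of length. Genes are not independent, and longer RNAs have more places for 4tU, so length moves with capture as well as with gene class. The part of either was not tested.

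Lists were then set beside genes of the same length quintile. Relative to that median, the proteasome stood at 0.99, chaperones at 1.12, cytoplasmic ribosomal proteins at 0.83, mitochondrial ribosomal proteins at 0.80 and trehalose and glycogen genes at 1.01, whose median coding length was 2117 nt. Cyclins stood at -0.93 and transcription regulators at -0.58. The respiratory chain dropped to 0.61, against a plain median of 1.503, and RNA polymerase I and III subunits to 0.000725, against 0.61. Histones, with a median coding length of 399 nt, turned to -0.39, and mRNA decay factors to 0.12. Genes with an intron outside the ribosomal proteins (222) had a median log2 fold change of 0.43, against -0.12 for 5411 without, and 0.26 against -0.03 relative to their length quintile.

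**Figure D4:**
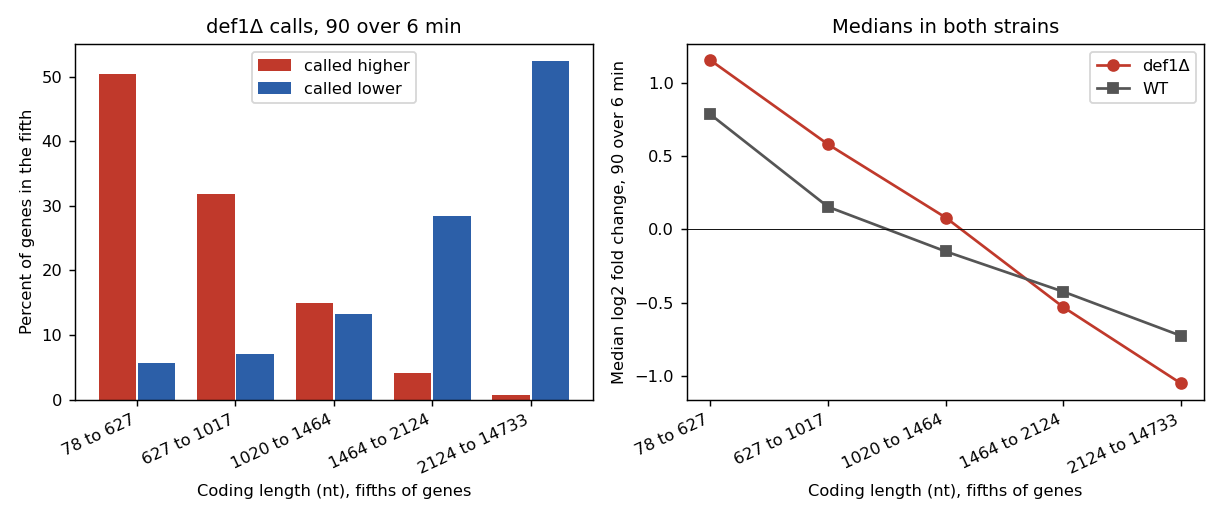
Left, percent of genes called higher (red) or lower (blue) at 90 over 6 min in def1Δ in quintiles of coding length (nt). Right, median log2 fold change of 90 over 6 min per quintile in def1Δ and in WT; the medians fall with length in both strains, from 1.15 to -1.05 in def1Δ and from 0.78 to -0.72 in WT.

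The same course in WT was used to ask where the changes in def1Δ differ, by a test of the difference between the 2 log2 fold changes of 90 over 6 min over all 18 libraries. Proteasome and mitochondrial ribosomal protein RNAs gained more in def1Δ than in WT. Of 6501 genes, 381 (5.86%) had a higher change in def1Δ and 213 (3.28%) a lower one. The scaling sets this balance, since with library totals only 1255 were higher and 37 lower, and the median difference over all genes moved by 0.49. What follows is therefore relative to the median gene. The number lower was also 103 to 136 without replicate 1 or 2 of 6 min or replicate 2 of 90 min of def1Δ, or without replicate 1 of 6 min of WT, and 246 were higher without replicate 2 of 90 min of WT. Across genes the changes in the 2 strains correlated with a Spearman's rho of 0.71.

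Of 34 proteasome genes, 26 had a higher change in def1Δ and none a lower one (none by DESeq2, 1 at an unadjusted p under 0.05). Their median log2 fold change was 1.31 in def1Δ and 0.13 in WT. For RPN1 it was 1.10 higher in def1Δ (adjusted p = 0.00151) and for SEM1 1.28 higher (adjusted p = 0.00672), while the difference of -0.63 for RPN4 was not called (adjusted p = 0.0229). Of 78 mitochondrial ribosomal protein genes, 28 had a higher change and none a lower one (none also by DESeq2 or at an unadjusted p under 0.05), with medians of 1.57 in def1Δ and 0.57 in WT. Without replicate 1 of 6 min of WT, 43 were higher. Of 22 trehalose and glycogen genes 11 had a higher change and none a lower one (none by DESeq2, 1 at an unadjusted p under 0.05), with medians of 0.38 in def1Δ and -0.74 in WT. Chaperones counted 9 higher and 1 lower of 36, and glycolysis 5 higher and 1 lower of 24 (8 higher without replicate 2 of 6 min of def1Δ or replicate 1 of 90 min of WT). From the shortest quintile of coding length to the longest, 81, 136, 102, 41 and 16 genes were higher, and 11, 14, 31, 56 and 90 lower. Length thus moved with this difference, though the second quintile had more higher calls than the shortest, and its part was not tested.

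Few cytoplasmic ribosomal protein RNAs and no snoRNA were called between the strains. The ribosomal protein list had medians of 1.86 in def1Δ and 1.90 in WT, with 2 of 135 genes higher and 2 lower. No snoRNA or spliceosomal RNA of 68 tested was called in either direction by edgeR or DESeq2, with none higher and 3 lower at an unadjusted p under 0.05. Their medians were 2.28 in def1Δ and 2.52 in WT. A difference under the cutoffs does not show that the RNAs behave alike.

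**Figure D5:**
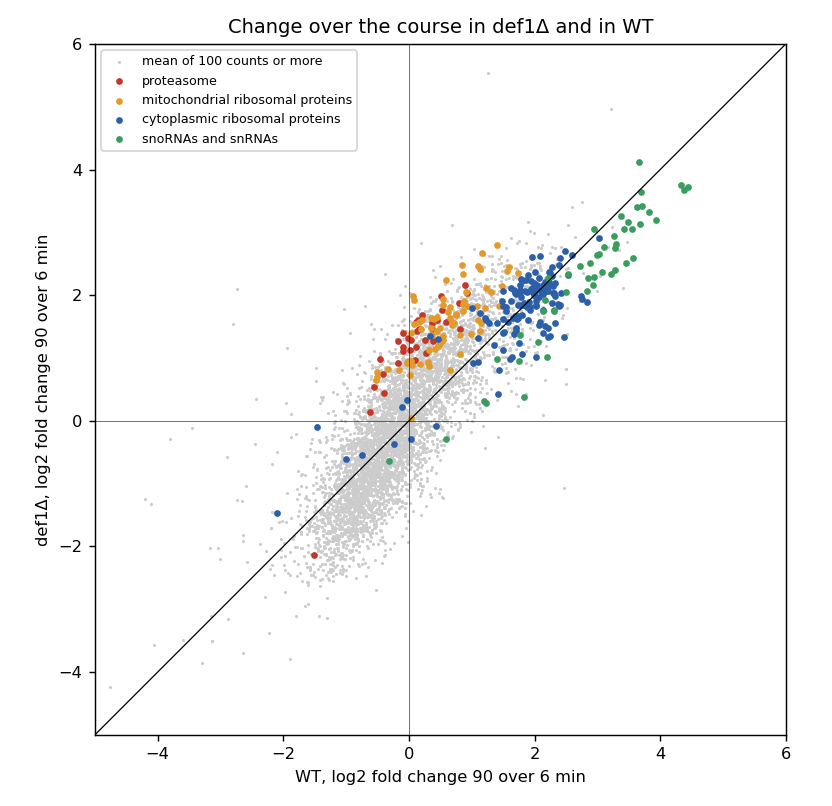
Log2 fold change of 90 over 6 min in def1Δ (vertical axis) against that in WT (horizontal axis) for 5115 of the 5122 genes with a mean of at least 100 counts (7 lie outside the axes); the line marks equal change. Of the 34 proteasome points (red) 26 were called higher in def1Δ, RPN4 is the red point at the lower left, and cytoplasmic ribosomal protein points (blue) lie on both sides of the line.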

How the data were processed

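Cells were grown to log phase, labeled with 4tU and harvested, and biotinylated labeled RNA was captured on streptavidin beads, depleted of rRNA and sequenced. Per the study's methods, the authors used STAR and the sacCer3 build for alignment. They deposited estimated counts from RSEM 1.2.28 for 7127 genes, without normalization, and these were rounded here. The study calls its replicates biological. Read shares depend on capture, and on any change in synthesis during labeling, as well as on RNA turnover. The part of each was not tested.

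A gene entered the fit when its counts summed to 15 or more. Fits used edgeR 4.0.16 (R 4.3.3; quasi-likelihood, TMM, Benjamini-Hochberg), with time as a factor, over 9 def1Δ libraries, or over 18 libraries for the difference between strains. Calls needed an adjusted p under 0.01 and a log2 fold change above 1 in size. The scripts were tested on simulated data. Alternatives were DESeq2 1.42.0, other scalings, filters and cutoffs, a replicate block, and leaving out each library.

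The genes named were the 12 largest rises and the 12 largest falls among calls averaging 100 counts or more whose 6 and 90 min libraries did not overlap; per list, the 2 most abundant members and the called members with the largest and smallest change; and, for the difference, the 4 largest in each direction. Not all of them are quoted. Members and lists were chosen with earlier results of these data known, and the lists were written from general knowledge. Gene positions and sequences are from RefSeq R64; 6047 entries matched. Repeated words are 50-base stretches of a gene found elsewhere in that genome. Coding length as a reference was added after the data were seen.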

Additional observations from a re-analysis of the deposited data

Results flagged for a closer look

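The change of 90 over 6 min differed between def1Δ and WT, by edgeR's test of the difference, most in 8 genes with a mean of at least 100 counts. HXT6, a high-affinity hexose transporter, had 44.8 and 47.3 normalized CPM at 90 min in def1Δ, against 5.98 and 14.8 at 6 min, and in WT 7.09 and 7.42 at 90 min, against 46.1 and 50.7 at 6 min. Its log2 change was 4.84 higher in def1Δ (SE 0.45, adjusted p = 5.9e-06 by edgeR), and 95.1% of its 50-base words occur elsewhere in the genome. YHR054C, whose words are all repeated, had a difference of 4.28 (adjusted p = 0.00231 by edgeR), which was not called without replicate 1 of 6 min of def1Δ (3.65, adjusted p = 0.0154 by edgeR). OSI1 had 59.5 and 81.0 normalized CPM at 90 min in def1Δ, against 96.6 and 76.4 at 6 min, and in WT 10.3 and 8.99 at 90 min, against 136 and 135 at 6 min, a difference of 3.51. YLR460C had 467.6 and 640.5 normalized CPM at 90 min in def1Δ, against 600.8 and 598.2 at 6 min, and in WT 49.0 and 43.8 at 90 min, against 564.9 and 458.5 at 6 min, a difference of 3.35.

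In the other direction, DUR3, a urea and polyamine transporter, had a difference of -2.17. The iron permease FTR1 and the multicopper oxidase FET3, which form the high-affinity iron uptake complex, had differences of -2.04 and -1.91. FTR1 had 337.9 and 337.5 normalized CPM at 90 min in def1Δ, against 333.1 and 299.2 at 6 min, and in WT 521.3 and 536.4 at 90 min, against 128.8 and 112.4 at 6 min. The noncoding RNA RME3 had a difference of -1.92.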

How the results depend on the processing

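With no fold cutoff, 2039 genes were higher and 2203 lower at 90 over 6 min. The counts for 90 over 6 min ranged from 1200 to 1413 higher and from 1068 to 1272 lower with 1 library left out, for 90 over 24 min from 257 to 459 higher and from 75 to 126 lower, and for the difference between strains from 246 to 476 higher and from 103 to 182 lower. With library totals only, 1255 genes were higher and 37 lower in that difference. Replicate numbers share only a number: deviations of same-numbered libraries correlated between -0.0442 and 0.0329 over 6 pairs of times, and with the replicate block the counts were 1242 higher and 1282 lower for 90 over 6 min, 627 and 845 for 24 over 6 min, 259 and 123 for 90 over 24 min, and 396 and 226 for the difference.

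Some values near 0 changed sign, and the cause was not tested. With library totals only, RPN2 was at -0.032, SSB1 at -0.076 and RDN37-1 at -0.15, and the medians of other noncoding RNAs and alpha-specific genes at -0.019 and -0.081. SSB1 was at -0.028 for 90 over 9 min. With upper quartile scaling TPS2 was at 0.11 and ERG11 at 0.014. RDN37-1 was at -0.059 with the replicate block. With 1 library left out, TPS2 ranged from -0.18 to 0.11 and RDN37-1 from -1.08 to 0.77, and the medians of rRNA from -1.65 to 1.28, tRNAs from -1.32 to 0.14, other noncoding RNAs from -0.59 to 0.40, alpha-specific genes from -0.65 to 0.31 and a-specific genes from -0.90 to 0.20. Relative to genes of the same length quintile, medians were -0.39 for histones, 0.12 for mRNA decay factors and -0.59 for alpha-specific genes.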

Other observations

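The untreated total RNA of def1Δ gives a level, in plain CPM, that labeled RNA can be set beside. Labeled levels of single genes are in normalized CPM here, so the scales of the levels differ. Across 6353 genes the labeled libraries correlated with the mean of 2 untreated libraries with r of 0.852 and 0.846 at 6 min, 0.900 and 0.896 at 24 min, and 0.884 and 0.873 at 90 min, as a description across genes that share libraries. Both values at 90 min were thus below those at 24 min. FLR1 had between 1301 and 2156 normalized CPM in labeled RNA up to 24 min and 77.8 and 79.4 at 90 min, against 27.6 and 37.8 CPM in untreated cells. AAD6 had 36.7 and 45.3 normalized CPM in labeled RNA at 90 min, against 8.31 and 7.86 CPM in untreated cells. YLR108C had 35.9 and 43.2 normalized CPM in labeled RNA at 90 min, against 13.4 and 21.2 CPM in untreated cells. FRE7 went the other way, with 3.01 and 1.29 normalized CPM in labeled RNA at 90 min, against 42.4 and 34.7 CPM in untreated cells. HSP12 had 242 and 193 normalized CPM in labeled RNA at 90 min, against 94.1 and 105 CPM in untreated cells. RPL10 and RPP0, the 2 most abundant ribosomal protein RNAs, moved further above the untreated level. RPL10 had 1117 and 1137 normalized CPM at 6 min and 3404 and 4036 at 90 min, against 601 and 572 CPM in untreated cells. RPP0 had 1179 and 1206, then 2283 and 2552, against 1156 and 965. The snoRNA snR83 moved closer, with 530 and 429, then 5926 and 7147, against 7056.5 and 8839.5. The cause was not tested.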
